A study of Macaca mulatta with 449 samples.

Results

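The gyri in front of and behind the central sulcus of the rhesus macaque were each sampled at an upper and a lower site, and the upper sites were compared with the lower ones. The superior side was the superior precentral gyrus (SPrCG) and the superior postcentral gyrus (SPCG), and the inferior side was the inferior precentral gyrus (IPrCG) and the inferior postcentral gyrus (IPCG). Each of these 4 sub-regions was sequenced in 8 animals, so that 32 of the 408 RNA samples in the count table were used, 16 a side. The reads of both superior pieces of an animal were summed, as were those of both inferior pieces, which gave 8 sums a side and let each animal be its own control.

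The samples came from healthy, group-housed macaques of 1 source, with no treatment or genetic change in any of them. The animals were Rhesus 2, Rhesus 3, Rhesus 7 and Rhesus 8, which were male and aged 10, 10, 4 and 3.8 years, and Rhesus 4, Rhesus 6, Rhesus 10 and Rhesus 11, which were female and aged 3.2, 10, 5 and 9.8 years. Every piece was a few cubic millimetres of tissue cut by the same anatomist from atlas landmarks, and the methods mention neither electrical mapping of the body part a piece served nor a separation of layers or white matter. Total RNA was depleted of ribosomal RNA before sequencing.

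The precentral gyrus holds primary motor cortex, whose large layer 5 pyramidal cells send axons to the brainstem and spinal cord. The postcentral gyrus holds primary somatosensory cortex, whose layer 4 receives touch and position signals from the thalamus. Along both gyri the body is laid out as a map, with the leg towards the midline, the arm below it and the face and mouth lowest, so the superior against inferior comparison runs along that map and the precentral against postcentral comparison runs across the boundary between the cortical areas.

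The 16 superior libraries held between 7816096 and 12837742 counts on genes and the 16 inferior libraries between 7849766 and 15173822. The median correlation of a library with the other 31, on log2 CPM (counts scaled to a library size of 1e6 counts after normalisation, with 0.5 added), was between 0.940 and 0.976. The 2 lowest values, 0.940 and 0.949, belonged to the IPCG of Rhesus 4 and the IPrCG of Rhesus 3, and pieces of Rhesus 6 also lay far apart from each other. The numbers of genes called between pericentral gyri, except those by age and sex, were therefore also obtained without these 3 animals. Cortical markers were high in both sides, with a median of 760.3 CPM of SLC17A7, the vesicular glutamate transporter of cortical excitatory neurons, in the superior sums and 745 CPM in the inferior sums.

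No gene passed the test between the superior and the inferior pericentral gyri. Of 15317 genes tested with edgeR's quasi-likelihood test and the animal as a block, 0 passed a false discovery rate (FDR) of 0.05, a background of 0%, and the lowest FDR was 0.632. At an unadjusted p under 0.05 there were 1086 genes (7.09%), of which 516 were higher (3.37%) and 570 lower (3.72%) on the superior side. DESeq2 called 2 genes, both lower on the superior side: CYP26B1, an enzyme that degrades retinoic acid, and VWF, the von Willebrand factor made by endothelial cells. Without the filter on low counts 3 genes passed, these 2 and KRT16, a keratin, and a fit that kept the 32 libraries apart called VWF alone, with an FDR of 0.0279. That call was kept without Rhesus 2 or without Rhesus 4 and lost without any other single animal, and DESeq2 on the libraries kept apart called 5 genes: VWF, DNAH2, LPAR5, SPON2 and SMR3B, the last with 10 reads in all. Without Rhesus 3, 4 and 6 no gene passed and 317 had an unadjusted p under 0.05.

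The intervals show how large a difference could have been missed. The 95% interval of the superior against inferior fold change lay within 2-fold in either direction for 15173 of the 15317 genes (99.1%), and within 1.5-fold for 13447 (87.8%). Among the 9923 genes with a mean of at least 10 CPM these shares were 99.9% and 96.9%. The median SE of a log2 fold change (log2FC, superior minus inferior throughout) was 0.085. In no gene did the 8 superior sums lie clear of the 8 inferior sums. Superior exceeded inferior in all 8 animals for 62 genes (0.405%), and the reverse held for 83 (0.542%). If either direction were equally likely in each animal, 1 in 256 genes would fall in each of these groups. The shares found were near that level.

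An absolute log2FC above 0.5 was found for 114 of all 15317 genes, for 48 of the 14348 with at least 1 CPM and for 5 of the 9923 with at least 10 CPM, and 1 gene had one above 1. The last 5 and the 1 are named here because of their values. The 5 were CYP26B1 (-0.68), VWF (-0.53), DNAH2, a dynein heavy chain (-0.55), SLC24A2, a sodium and calcium exchanger (0.60, with an interval of -0.01 to 1.22), and ENSMMUG00000030470, which has no symbol (0.62, with an interval of -0.02 to 1.26). The gene above 1 was ENSMMUG00000028668, also without a symbol, with a log2FC of 2.36 and an interval of -0.17 to 4.90. Its superior sums ran from 0 to 28.2 CPM with a median of 3.49, and its inferior sums from 0 to 4.97 CPM with a median of 0.12, so both sides held sums at 0.

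The same 32 libraries differed widely across the central sulcus. The precentral against postcentral contrast called 4042 of 14791 genes (27.3%), 2120 higher and 1922 lower in the precentral gyri. Its fit kept the 32 libraries apart, so that both pieces of a gyrus in an animal entered separately. The contrast was not fitted on sums within animals. With the libraries kept apart, superior against inferior called 1 gene. Both contrasts were taken from 1 fit, with the same number of libraries on each side and nearly the same median SE, 0.0759 for superior against inferior and 0.0759 for precentral against postcentral. In that fit 63 genes had an absolute log2FC above 0.5 along the gyri and 996 across the sulcus. Without Rhesus 3, 4 and 6 the contrast across the sulcus still called 3852 of the genes tested.

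**Figure D1:**
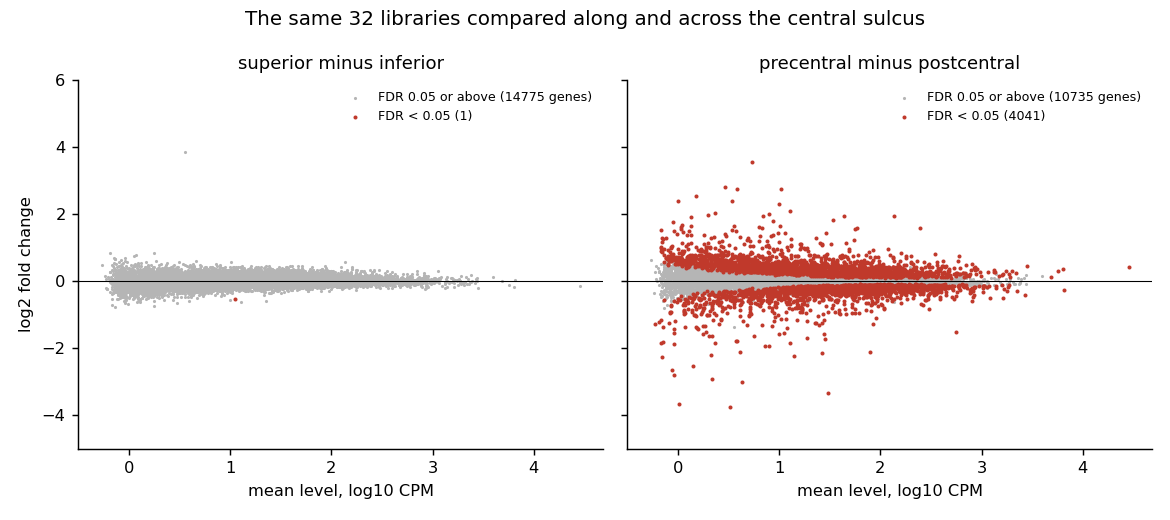
Mean level of each of 14776 genes (log10 CPM, horizontal axis) against its log2 fold change (vertical axis) for superior minus inferior on the left and precentral minus postcentral on the right, both from the 32 libraries kept apart. Red points passed an FDR of 0.05: 1 gene, VWF, on the left and 4041 on the right, while the left cloud stays close to 0 at all levels.

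The distance between whole profiles within an animal pointed the same way but less sharply. The root mean square difference of log2 CPM between the superior and inferior piece of 1 gyrus was 0.382 ± 0.107 (SD, n = 8 animals, mean of both gyri), and that between the precentral and postcentral piece of 1 side was 0.432 ± 0.0702. The second was larger in 7 of 8 animals, by 0.0502 ± 0.0566 (SD), with p = 0.0625 in an exact two-sided sign-flip permutation test, whose smallest possible p with 8 animals is 0.0078. This measure was chosen after the gene results were seen. With 1 minus the correlation as the distance the second was larger in 6 of 8 animals (p = 0.09375 in the same exact test). By the root mean square the exception was Rhesus 3, in which the superior and inferior pieces of a gyrus lay farther apart than the pieces across the sulcus.

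**Figure D2:**
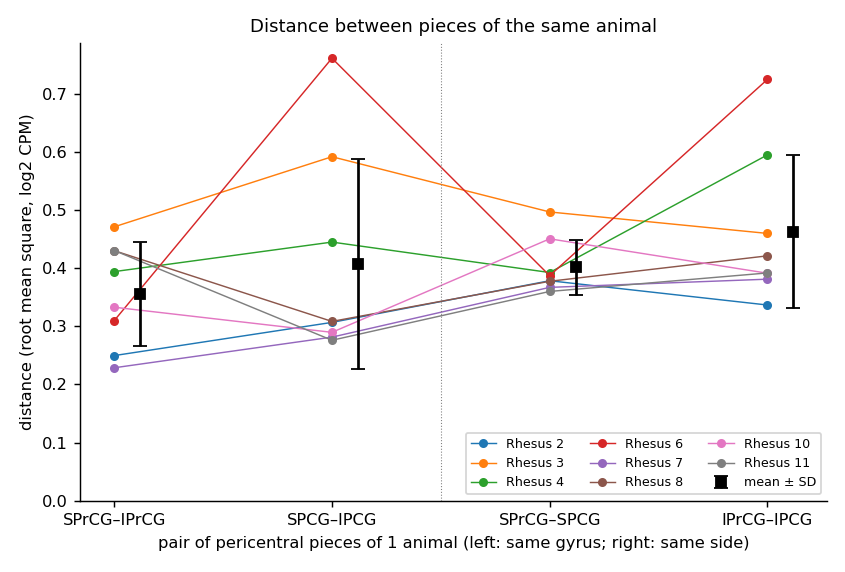
Root mean square difference of log2 CPM (vertical axis) between 2 pericentral pieces of the same animal, for the pairs within a gyrus (left) and within a side (right); coloured lines are the 8 animals and black squares are means with SD. The pairs of SPCG with IPCG run from 0.276 to 0.761, and Rhesus 6 holds the highest value both there and for IPrCG with IPCG.

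The 2 ends of a gyrus were often not each other's closest relative in the cortex. Among the other 30 cortical sub-regions of the same animal, the piece most correlated with a pericentral piece was the other end of its own gyrus for 11 of the 32 samples. The median rank of the other end was 3.5 for SPrCG, 2 for IPrCG, 2.5 for SPCG and 3 for IPCG. The intraparietal sulcus, the posterior superior frontal gyrus, the superior parietal lobule and the posterior superior parietal gyrus were among the other nearest pieces. The normalisation of this comparison was over all 408 samples.

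Although no gene passed, the genes nearest to the threshold were examined one by one. Genes among the 12 in each direction with the lowest p, a mean of at least 1 CPM on the higher side and the same direction in all 8 animals are described next, and all had an FDR of 0.632 or above. Since the rule asks for 8 of 8 animals, the shared direction is not a finding.

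Of the 12 genes higher on the inferior side, 3 are known from the vessel wall. VWF ran from 5.92 to 14.9 CPM in the superior sums (median 7.92) and from 7.71 to 26.4 CPM in the inferior sums (median 10.9), a log2FC of -0.53 ± 0.10 (SE). The inferior sums of Rhesus 6 and Rhesus 11 stood highest, and the inferior sums of the other 6 animals, from 7.71 to 12.2 CPM, lay within the range of the superior sums. CAVIN2, a coat protein of caveolae, ran from 1.1 to 7.20 CPM above (median 2.40) and from 1.74 to 12.7 CPM below (median 3.47), a log2FC of -0.58 ± 0.11. ADGRF5, an adhesion receptor of endothelial cells, ran from 16.3 to 34 CPM above (median 21.5) and from 21.7 to 44.7 CPM below (median 28.4), a log2FC of -0.31 ± 0.07. All of these ranges overlap. In the ranking of mean levels over 31 cortical sub-regions, normalised together with all 408 samples, IPrCG held the highest mean of VWF (16.7 ± 8.71 CPM, SD, n = 8), of CAVIN2 and of ADGRF5, while IPCG ranked 10, 4 and 5, SPrCG 16, 15 and 3 and SPCG 29, 30 and 17. For ADGRF5 the superior precentral piece thus stood above the inferior postcentral one.

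The endothelial and pericyte list as a whole moved less. Of 6 listed genes 5 were tested. At an unadjusted p under 0.05, 2 were lower on the superior side and none was higher, against 3.72% and 3.37% of all genes tested. The 5 had a median log2FC of -0.16 against -0.01 over all genes tested. Besides VWF they were FLT1, a receptor for vascular endothelial growth factor (-0.17), PECAM1, an adhesion molecule of endothelial junctions (-0.16), PDGFRB of pericytes (-0.06) and RGS5 of pericytes (0.12). The summed level ran from 142 to 210 CPM in the superior sums and from 141 to 264 CPM in the inferior sums and was higher on the superior side in 3 of 8 animals. In bulk tissue fewer cells of a type and less RNA per cell cannot be told apart, here and for the cell types below.

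Also among the 12 were C3 and MAMU-DRA. C3, the central complement protein, ran from 24.1 to 38.3 CPM above (median 33.3) and from 33 to 55.0 CPM below (median 40.1), a log2FC of -0.30 ± 0.07. MAMU-DRA, the macaque alpha chain of a class II histocompatibility antigen, ran from 1.43 to 8.72 CPM above (median 3.18) and from 1.93 to 11.0 CPM below (median 4.54), a log2FC of -0.47 ± 0.12. MAMU-DRA belongs to a family of related genes. How reads matching more than 1 gene were counted is not given in the sources used here, so its count is uncertain. Of the 8 listed microglial markers 6 were tested, and all 6 had a log2FC below 0, as did 7983 of all 15317 genes tested. Of the 6, 3 had an unadjusted p under 0.05 against the 3.72% of all genes. These 3 were P2RY12, a purine receptor of resting microglia (-0.32, interval -0.55 to -0.09), C1QC, a complement component (-0.22), and CSF1R, the receptor on which microglia depend (-0.18). The summed microglial level was 81.1 to 130 CPM above and 96.1 to 144 CPM below, lower on the superior side in 7 of 8 animals.

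CYP26B1 had the lowest p of all genes tested. Its levels ran from 9.79 to 29.9 CPM in the superior sums (median 16) and from 16.8 to 35.9 CPM in the inferior sums (median 27.5), a log2FC of -0.68 ± 0.12 with an interval of -0.93 to -0.42. The mean was 36.3 ± 6.16 CPM in IPCG, 24.5 ± 9.18 in SPCG, 16.5 ± 10.8 in IPrCG and 11.8 ± 7.42 in SPrCG (SD, n = 8 each). The order thus ran with both axes, higher behind the sulcus and higher below. The enzyme clears retinoic acid, a signal used in patterning the cortex. In the ranking over the cortex its mean was highest in the inferior temporal gyrus, at 72.6 ± 14.6 CPM, and the 4 pericentral pieces ranked 8, 22, 26 and 29 of 31.

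The remaining genes higher on the inferior side were of varied function. LPAR5, a receptor for lysophosphatidic acid, ran from 2.49 to 4.99 CPM above and from 3.41 to 5.81 CPM below (log2FC -0.48). SPON2, a secreted matrix protein, had a log2FC of -0.35, CHRDL2, an antagonist of bone morphogenetic proteins, -0.40, and ANGPTL4, an inhibitor of lipoprotein lipase, -0.44. CALB1, the calcium buffer calbindin of upper layer neurons and some interneurons, ran from 46.4 to 149 CPM above and from 50.1 to 210 CPM below (log2FC -0.32). PIRT, a regulator of sensory ion channels, was higher in front of the sulcus, with means of 8.10 ± 3.41 CPM in IPrCG, 5.53 ± 3.41 in SPrCG, 1.02 ± 0.44 in IPCG and 0.83 ± 0.41 in SPCG, and a log2FC of -0.48 along the gyri.

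On the superior side the 12 genes held no shared class. KRT16 ran from 1.29 to 10.7 CPM above (median 4.48) and from 0.41 to 7.17 CPM below (median 1.98), a log2FC of 0.88 ± 0.23. GLP2R, the receptor for glucagon-like peptide 2, ran from 1.1 to 6.88 CPM above (median 2.38) and from 0.54 to 3.70 CPM below (median 2.08), a log2FC of 0.55 ± 0.16. For both the sides overlap. KRT16 had a log2FC of -0.04 in the precentral and 1.04 in the postcentral gyrus and GLP2R -0.06 and 0.88, and in neither did the difference between gyri pass its test. KRT16 averaged 10.4 ± 7.24 CPM in SPCG and 5.42 ± 4.95 in IPCG, but 0.75 ± 0.51 in SPrCG and 0.87 ± 0.57 in IPrCG.

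SSTR2, a somatostatin receptor, had its higher log2FC in the precentral gyrus (0.39 against 0.15), again with a difference between gyri that did not pass, and averaged 17.9 ± 4.05 CPM in SPrCG and 13.6 ± 3.22 in IPrCG, 17.6 ± 4.37 in SPCG and 15.8 ± 3.56 in IPCG (SD, n = 8). STARD13, a lipid transfer domain protein (0.31), ELOVL5, a fatty acid elongase (0.25), ZNF473, a zinc finger protein of histone RNA processing (0.24), EYA1, a transcriptional cofactor (0.30), VWA7 (0.33), SCPEP1, a serine carboxypeptidase (0.24), TMEM263 (0.23) and MTRF1, a mitochondrial release factor (0.26), were also higher above. ELOVL5 had its highest cortical mean in SPrCG and its next highest in SPCG, while IPrCG ranked 13 and IPCG 31.

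**Figure D3:**
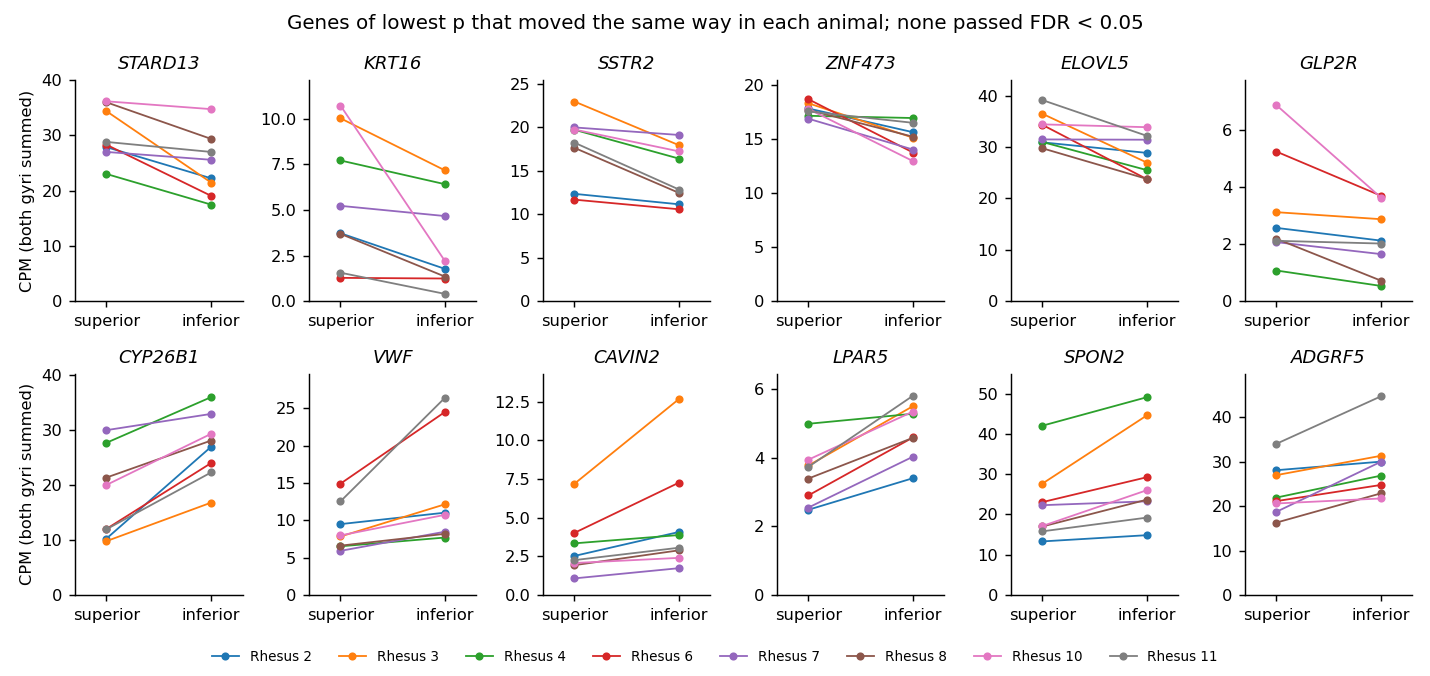
CPM (vertical axes, from 0) of 6 genes higher on the superior side (upper row) and 6 higher on the inferior side (lower row), with 1 line for each of the 8 animals joining its superior and inferior sums. Every line of a panel slopes 1 way, as the rule required, but the animals differ from each other by more than the sides do, as for VWF with 5.92 to 14.9 CPM above and 7.71 to 26.4 CPM below.

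Both gyri could be examined separately. In the precentral gyrus 0 of 14791 genes passed (0%), with the lowest FDR at 0.25, and in the postcentral gyrus 0 passed (0%), with the lowest FDR at 0.496. Unadjusted p-values under 0.05 were found for 738 genes (4.99%; 2.41% higher and 2.58% lower) in the precentral and 1378 (9.32%; 4.37% higher and 4.94% lower) in the postcentral gyrus. The difference between the superior against inferior contrasts of the gyri also called 0 genes, with 485 (3.28%; 1.96% higher and 1.32% lower) under an unadjusted p of 0.05. DESeq2 called 3, 1 and 0 genes in these comparisons. The 3 were VWF, ANKRD6, a Wnt pathway protein, and SMR3B, and the 1 was SMR3B, which had 10 reads in the 32 libraries; they are named because there are so few.

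The leading genes of the precentral gyrus were VWF (log2FC -0.63), GPR3, a receptor that raises cyclic AMP (0.42), SSTR2 (0.39) and ANKRD6 (-0.38), all at an FDR of 0.25. Those of the postcentral gyrus included GLP2R (0.88) and CEBPD, a transcription factor of inflammation (-0.69), at an FDR of 0.496. These were chosen after their values were seen. Across the 14791 genes the log2FC of the gyri, from separate libraries of the same animals, correlated at r = 0.23, and at r = 0.39 over the 9923 genes with at least 10 CPM. Within single animals the correlation ran from -0.30 to 0.61, with a median of 0.12. It was above 0 in 5 of 8 animals. Of the genes with an unadjusted p under 0.05, 74 were shared. They were 10.0% of the precentral list, where 9.32% of all genes had such a p in the postcentral gyrus, and 5.37% of the postcentral list, where 4.99% of all genes had one in the precentral gyrus, so the shares were near the background. Of these genes 62 of the 74 had the same direction, 20 higher and 42 lower on the superior side. The share of all 14791 genes with the same direction in both gyri was not obtained, so this count has no background beside it.

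**Figure D4:**
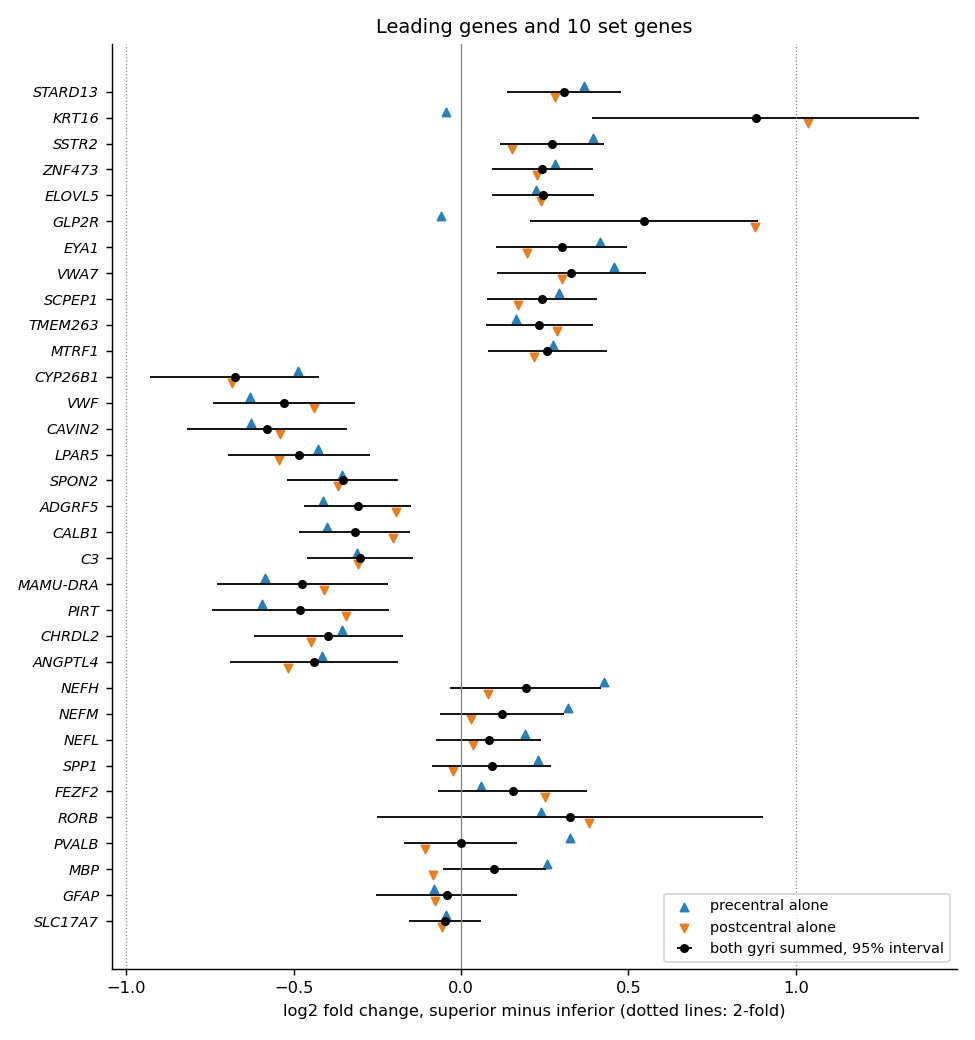
Log2 fold change, superior minus inferior (horizontal axis), of leading genes and of 10 genes set by rule: black points with 95% intervals for the summed gyri, blue upward triangles for the precentral and orange downward triangles for the postcentral gyrus alone. KRT16 and GLP2R sit near 0 in the precentral gyrus (-0.04 and -0.06), and PVALB has opposite signs in the gyri (0.33 and -0.11).

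Myelin genes had opposite medians in the gyri. In the precentral gyrus all 10 listed genes had a log2FC above 0, from 0.26 to 0.48 with a median of 0.37, and 9 of them had an unadjusted p under 0.05, against 2.41% of all genes in that direction. In the postcentral gyrus none of the 10 had such a p, and their median was -0.11. MAG, an adhesion molecule of the inner myelin wrap, had a log2FC of 0.45 (interval 0.17 to 0.74) in the precentral and -0.15 (-0.43 to 0.14) in the postcentral gyrus, and OPALIN, a membrane protein of oligodendrocytes, 0.39 (0.17 to 0.62) and -0.13 (-0.36 to 0.10). For MBP, myelin basic protein, the means were 3190 ± 865 CPM in SPrCG, 2717 ± 906 in IPrCG, 2472 ± 633 in SPCG and 2635 ± 529 in IPCG (SD, n = 8).

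None of the 10 passed adjustment, in either gyrus or in the test of the difference between gyri. The lowest FDR was 0.642 in the precentral gyrus, and 7 of the 10 had an unadjusted p under 0.05 in the difference, with FDR of 0.941 or above. Over the summed gyri the list had a median log2FC of 0.15. At an unadjusted p under 0.05, 4 of 10 genes were higher and 0 lower, against 3.37% and 3.72% of all genes tested. ERMN, a cytoskeletal protein of myelin, led with 0.29, followed by MOBP (0.21), a basic protein of myelin. Its summed level was 3997 to 6349 CPM above and 3704 to 6663 CPM below and was higher above in 5 of 8 animals. The share of white matter in each piece was not measured.

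Genes of large, fast-conducting axons and fast firing were listed as a group. Of 24 listed genes 19 were tested, with a median log2FC of 0.08 over the summed gyri. At an unadjusted p under 0.05, against 3.37% higher and 3.72% lower over all genes, 1 of the 19 was higher and 0 lower. The 3 with the highest values were SYT2, a fast calcium sensor of release (0.43, interval -0.08 to 0.94), KCNS1, a modulatory potassium channel subunit (0.37, 0.06 to 0.68), and ESRRG, a nuclear receptor (0.35, but -0.0028 without Rhesus 3, 4 and 6). In the precentral gyrus alone 7 of the 19 were higher at an unadjusted p under 0.05 and 0 lower, in the postcentral gyrus 0 and 2, against 2.41% of all genes higher in the precentral and 4.94% lower in the postcentral gyrus. The heavy neurofilament chain NEFH averaged 232 ± 102 CPM in SPrCG and 167 ± 38 in IPrCG, and 314 ± 66.4 in SPCG and 296 ± 35.5 in IPCG, and its precentral log2FC was 0.43 (interval 0.07 to 0.78, FDR 0.916).

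The 4 neurofilament genes tested, of 5 listed, had a median of 0.10 over the summed gyri, and none had an unadjusted p under 0.05. NEFH ran from 174 to 356 CPM in the superior sums (median 295) and from 163 to 271 in the inferior sums (median 241), a log2FC of 0.19 with an interval of -0.03 to 0.42. NEFM and NEFL, the medium and light chains, had 0.12 (-0.06 to 0.31) and 0.08 (-0.08 to 0.24). By contrast all 4 were lower in the precentral than in the postcentral gyri at an FDR under 0.05, NEFH by a log2FC of -0.67. SPP1, a marker of the largest corticospinal neurons in the macaque, had a log2FC of 0.09 with an interval of -0.09 to 0.27.

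Layer markers passed in neither direction. Of the 16 layer 5 genes tested, of 17 listed, 14 had a log2FC above 0, with a median of 0.16, 4 higher and 1 lower at an unadjusted p under 0.05. Of all 15317 genes tested, 7334 had a log2FC above 0. At such a p 3.37% of them were higher and 3.72% lower, which is also the background of the lists below. The 3 layer 5 genes farthest from 0 were RPRM (0.43), ADRA1A, an adrenaline receptor (0.36), and TSHZ2 (0.30). FEZF2, which directs the fate of corticospinal neurons, had 0.15 with an interval of -0.07 to 0.38. The 7 layer 4 genes tested, of 10, had a median of 0.15 (0 higher, 1 lower), among them SYT2, KCNH5 (0.19, but -0.021 with the RNA integrity score as a covariate and -0.052 without Rhesus 3, 4 and 6) and RORB, a nuclear receptor of layer 4, whose sums ran from 9.88 to 56.5 CPM above and from 8.52 to 49.9 CPM below (log2FC 0.33, interval -0.25 to 0.90). Across the sulcus RORB was lower in front, with a log2FC of -1.72. Its sign along the gyri turned, to -0.11 with the integrity score and -0.18 without Rhesus 3, 4 and 6.

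Upper layer and layer 6 markers lay around 0. The 15 upper layer genes tested, of 17, had a median of -0.03 (0 higher, 1 lower at an unadjusted p under 0.05), with CALB1, POU3F2 (0.14, but -0.012 with the integrity score and -0.043 without Rhesus 3, 4 and 6) and GPR83 (-0.11) farthest from 0 among those of at least 1 CPM. The 15 layer 6 genes tested, of 16, had a median of 0.01 (2 higher, 1 lower), with SYT6, a synaptotagmin (0.58, interval 0.26 to 0.90), SEMA3E, a secreted guidance cue (0.48), and OPRK1, the kappa opioid receptor (0.44). SYT6 was higher on the superior side in 7 of 8 animals.

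General markers of excitatory neurons leaned to the inferior side. All 5 listed genes were tested, 2 were lower and 0 higher on the superior side at an unadjusted p under 0.05, and the median was -0.10. NRGN, a calmodulin-binding protein of dendritic spines, had a log2FC of -0.22 (interval -0.37 to -0.08) and SLC17A6, the other vesicular glutamate transporter, -0.22 (-0.35 to -0.09), each lower above in all 8 animals. CAMK2A, a synaptic kinase, had -0.10 and SLC17A7 -0.05, with an interval of -0.15 to 0.06. The summed level of the list was 3956 to 5352 CPM above and 4402 to 5584 below.

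Interneuron, net and channel genes were spread on both sides of 0. The 24 interneuron markers tested, of 27, had a median of -0.02 (2 higher, 2 lower at an unadjusted p under 0.05), with SV2C, a synaptic vesicle protein (0.50, interval -0.22 to 1.23), PROX1 (0.30) and NOS1, neuronal nitric oxide synthase (0.30), farthest from 0. SV2C turned to -0.032 without Rhesus 3, 4 and 6, and NOS1 to -0.044 without them and to -0.011 with the integrity score. PVALB, parvalbumin of fast-spiking interneurons, had 47.9 to 78.6 CPM above and 43.6 to 78.9 below, a log2FC of -0.00 with an interval of -0.17 to 0.17. The 11 perineuronal net genes tested, of 15, had a median of -0.04 (0 higher, 2 lower), with TNR (0.39), VCAN (0.22) and TNC (-0.19), all matrix proteins, of which TNR turned to -0.024 with the integrity score.

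Potassium channels numbered 29 tested of 38, with a median of 0.06 (1 higher, 0 lower) and with KCNS1 and KCNH1 (0.36, but -0.043 with the integrity score) in front. Sodium channels numbered 7 of 9, with a median of 0.08 (0 higher, 1 lower) and with SCN8A (0.44, interval -0.07 to 0.96), SCN9A (0.19) and the auxiliary subunit SCN3B (-0.19). Calcium and HCN channels numbered 11 of 14, with a median of 0.08 (0 and 0) and with HCN4 (0.27), CACNA1I (0.24) and CACNA1E (0.24, but -0.036 with the integrity score). Synaptotagmins, the calcium sensors of vesicle release, numbered 15 of 17, with a median of 0.05 (1 higher, 0 lower) and with SYT6, SYT11 (0.44) and SYT2. None of these medians stood 0.1 from that of all genes.

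Genes that pattern the cortex and guide its axons gave single genes rather than a shift of the list. Of 48 patterning factors 43 were tested, with a median of -0.03 (3 higher, 3 lower at an unadjusted p under 0.05). Among those of at least 1 CPM, CYP26B1, ZBTB16 (0.40) and MEIS3, a homeobox factor (-0.37, interval -0.61 to -0.13), lay farthest from 0. Of 71 guidance genes 63 were tested, with a median of 0.02 (4 higher, 0 lower), and the 3 farthest from 0 were secreted semaphorins, cues that repel or attract axons: SEMA3A (0.88, interval 0.36 to 1.41), SEMA3E and SEMA3D (0.43). Of the other class 3 semaphorins SEMA3C had 0.24, SEMA3F 0.03, SEMA3B -0.16 and SEMA3G -0.22. SEMA3A was low, with medians of 1.55 CPM above and 0.78 CPM below, and was higher above in 6 of 8 animals. Of 35 cadherins 30 were tested, with a median of 0.03 (2 higher, 1 lower) and with PCDH11X (0.33), PCDH17 (0.28) and PCDH9 (0.27).

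Signalling lists had medians on both sides of 0, and no gene in them passed. Of the neuropeptides tested, 25 of 35 had a log2FC below 0, against 7983 of all 15317 genes. A log2FC above 0 was found for 26 of 37 glutamate and GABA receptors, 23 of 40 neuromodulator receptors and 8 of 15 immediate early genes. Over all genes it was found for 7334. Neuropeptides numbered 35 tested of 44, with a median of -0.06 (2 higher, 4 lower) and with OSTN, osteocrin (0.41, interval 0.08 to 0.74), NXPH3 (0.39) and TRH, thyrotropin-releasing hormone (-0.38). Neuromodulator receptors numbered 40 of 55, with a median of 0.01 (4 higher, 4 lower) and with DRD5, a dopamine receptor (0.52, interval 0.18 to 0.86), OPRK1 and ADRA1A. Glutamate and GABA receptors numbered 37 of 39, with a median of 0.12 (3 higher, 0 lower) and with GABRB2 (0.49) and GRIK3 (0.48). Immediate early genes, which mark recent activity, numbered 15 of 23, with a median of 0.01 (0 and 0) and with NPAS4 (0.24), JUND (-0.18) and NR4A2 (0.16).

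Other glia and tissue at the borders of cortex were measured to see what each piece held. The 6 astrocyte markers tested, of 7, had a median of 0.00 (0 and 0), with SLC1A2, the main glutamate transporter (0.29, interval -0.10 to 0.68, but -0.046 with the integrity score and -0.0090 without Rhesus 3, 4 and 6), GFAP (-0.04, interval -0.25 to 0.17) and ALDH1L1 (-0.04). The 5 oligodendrocyte precursor markers, of 7, had -0.05 (0 and 0), with VCAN, OLIG2 (-0.07) and GPR17 (0.07). Ependyma, 2 of 4 tested, had FOXJ1 at 0.12 and DNAH9 at 0.01, and 5 of 6 markers of striatum and thalamus had a median of -0.03 (0 and 0), with ADORA2A (-0.21), PPP1R1B (-0.10) and TCF7L2 (0.09). Heat shock genes, 9 of 13, had a median of 0.01 (0 and 0), with HSPA8 (0.16), HSPH1 (0.12) and HSP90AB1 (-0.07).

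The choroid plexus markers tested and a single fibroblast marker were lower on the superior side, without a shift of the meningeal list, whose median was -0.02. CLIC6, a chloride channel of choroid plexus and other epithelia, had medians of 2.95 CPM above and 4.77 CPM below, a log2FC of -0.62 (interval -0.94 to -0.31). TTR, the defining plexus gene, was low, with averages of 0.54 and 0.78 CPM, and AQP1, a water channel, had -0.12. CLIC6 also differed across the sulcus by 3.54, higher in front. Of the 3 choroid plexus genes tested, of 5 listed, 0 were higher and 1 lower at an unadjusted p under 0.05, with a median of -0.41. COL1A2, a fibrillar collagen of meningeal and perivascular fibroblasts, averaged 1.26 and 2.31 CPM (log2FC -0.71, interval -1.11 to -0.31), whereas LUM and DCN, other fibroblast genes, had 0.05 and -0.02; of the 4 listed, 3 were tested, 0 higher and 1 lower. No gene of the blood list passed the filter on low counts. The part of vessels, meninges and immune cells in the differences of other genes was not tested.

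**Figure D5:**
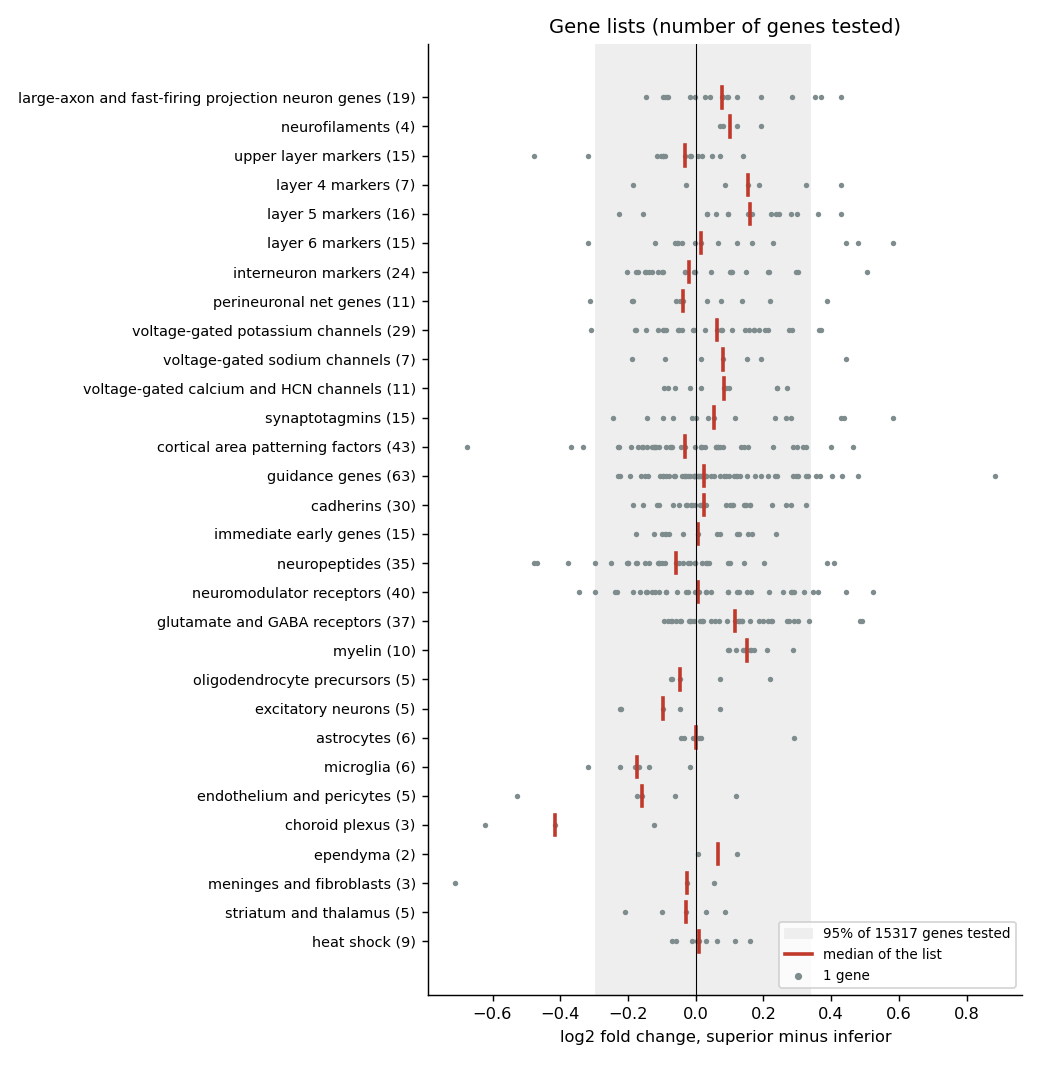
Log2 fold change, superior minus inferior (horizontal axis), of each tested gene (grey points) in 30 lists, with the median of each list as a red bar; the shaded band, from -0.30 to 0.34, holds 95% of all 15317 genes. Most medians lie near 0, the myelin list has its 10 genes to the right of 0, and the 6 microglial genes lie to the left.

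RNA quality also varied between the sides. The transcript integrity score that accompanies the libraries was on average lower for the inferior pieces, mainly in Rhesus 3, Rhesus 4, Rhesus 6 and Rhesus 8. With this score as a covariate 0 genes passed and 374 had an unadjusted p under 0.05, in place of 1086. Leaving out 1 animal at a time gave 0 called genes each time and between 477 and 1639 genes under an unadjusted p of 0.05, with 477 without Rhesus 3, 520 without Rhesus 8 and 532 without Rhesus 6, but 1292 without Rhesus 4. With the covariate 440 genes had such a p in the postcentral gyrus in place of 1378, but 892 in place of 738 in the precentral gyrus and 599 in place of 485 in the difference between gyri. In the fit on sums the leading genes CYP26B1, VWF and KRT16 kept their direction with the covariate and did not pass, as without it. With the libraries kept apart VWF still passed with the covariate (log2FC -0.53, FDR 0.0301). The genes whose sign turned are given with their values.

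The superior to inferior difference was also compared with that of the neighbouring gyri. In front, the posterior superior frontal gyrus against the inferior frontal gyrus called 317 of 14423 genes (2.2%), 174 higher (1.21%) and 143 lower (0.991%) in the superior gyrus, and 6.6% and 5.78% of genes had an unadjusted p under 0.05. Behind, the superior parietal lobule against the marginal gyrus called 1 of 14431 (0.00693%), CARTPT, a neuropeptide precursor, with a log2FC of -2.02, while 6.74% of genes had an unadjusted p under 0.05, 3.59% higher and 3.15% lower. Each of these was fitted on its own 16 libraries, 1 a side in each animal, whereas the precentral and postcentral contrasts came from the fit of 32 libraries with more residual degrees of freedom, so the counts are not on equal terms. The count in front depended on the animals: it was between 149 and 1011 when 1 was left out, with 149 without Rhesus 11, 174 without Rhesus 3, 184 without Rhesus 2, 192 without Rhesus 10 and 1011 without Rhesus 4.

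The leading pericentral genes were followed in front. CYP26B1 was lower in the superior frontal gyrus with a log2FC of -1.83 (FDR 1.59e-04), the same direction as in the pericentral gyri, and SPON2 was lower with -0.90 (FDR 0.0036). PIRT (2.03) and ADGRF5 (0.46) passed in the opposite direction, as did KRT16 (-1.70) and SSTR2 (-0.47) among the genes of the superior side. In all, 5 of the 12 inferior genes and 7 of the 12 superior genes had the same sign in the frontal comparison, and 10 and 7 in the parietal one, where none passed. NEFH was higher in the superior frontal gyrus by 1.00 (FDR 0.030), while in the parietal comparison its 0.61 did not pass (FDR 0.0783).

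Age and sex were examined as changes of the superior against inferior contrast. With 4 mid-aged animals (older than 5 years) and 4 young ones, 0 of 15317 genes differed in the contrast (0%), and 2012 had an unadjusted p under 0.05 (13.1%; 5.82% higher and 7.31% lower). Among the genes of lowest p, and named after its value was seen, was UGT8, an enzyme of myelin lipid synthesis (0.58, interval 0.35 to 0.82), with the contrast higher in mid-aged animals and at an FDR of 0.316. DESeq2 called 11 genes for this difference. Between 4 females and 4 males 0 genes differed (0%) and 169 had an unadjusted p under 0.05 (1.1%).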

How the data were processed

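The authors trimmed reads (Trim Galore 0.4.4), aligned them with HISAT2 2.0.5 to the macaque genome and deposited unnormalized gene counts from HTSeq 0.6.1; the libraries were made with a strand-marking kit, but the strand and overlap options of counting are not given in the sources used here, so values of antisense or overlapping genes, and of near copies, are uncertain. Of 30807 genes, 17572 took a symbol from a reference table and 482 from the supplement alone; 2450 shared a symbol. Here the 2 superior and the 2 inferior libraries of each animal were summed and tested with edgeR 4.0.16 in R 4.3.3 (TMM, filterByExpr, quasi-likelihood F test, Benjamini-Hochberg FDR, called under 0.05), with the animal as block; the gyri were compared in 1 fit of the 32 libraries. The SE is the absolute log2FC divided by the square root of F. Intervals use the t distribution. Samples of the same number come from the same animal; their deviations from the side means correlated at 0.51 to 0.81. Gene members and the 32 lists (578 symbols, 449 tested) were chosen with earlier results of these data known. Named were the 12 genes per direction of lowest p under the rule given in the text (since fewer than 5 passed), 10 set genes (NEFH, NEFM, NEFL, SPP1, FEZF2, RORB, PVALB, MBP, GFAP, SLC17A7) and the 3 genes of at least 1 CPM farthest from 0 in each list; a few of these are not reported here. No symbol of the list of mitochondrially encoded genes matched. Tests were tried on simulated data. Alternatives were DESeq2 1.42.0 (on genes detected by over 1 read in 3 or more samples), its size factors, other filters, no block, the integrity score as covariate, separate libraries, an absolute log2FC above 0.5 and each animal left out; leaving out Rhesus 3, 4 and 6 together was added once the data had been seen. Chromatin accessibility libraries were not analysed here.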

Additional observations from a re-analysis of the deposited data

Results flagged for a closer look

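In groups of 8 sums, 3 values of 68 groups examined (24 leading and 10 set genes on both sides) stood apart from their nearest neighbour by more than Dixon's critical value of 0.526 for the share of the range, and chance flags about 1 in 20 groups. PIRT in the inferior sum of Rhesus 3 was lowest, at 1.41 CPM with the next at 3.33. NEFH in the inferior sum of Rhesus 4 was lowest, at 163 CPM with the next at 215. SLC17A7 in the inferior sum of Rhesus 3 was highest, at 927 CPM with the next at 787. No difference of the superior against inferior contrast between gyri, ages or sexes passed its test with edgeR.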

How the results depend on the processing

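The count of 0 for superior against inferior held with DESeq2's size factors, with a detection filter, with the integrity score, with an absolute log2FC above 0.5, without Rhesus 3, 4 and 6 and without any single animal (0 to 0), and with no replicate block (0 called, 83 under an unadjusted p of 0.05). It was 2 with DESeq2, 3 without the filter on low counts and 1 with the libraries kept apart. DESeq2 gave 3 for the precentral and 1 for the postcentral gyrus and 11 for age; for sex it gave 1, as did no filter, in each case ENSMMUG00000028668. Leaving out 1 animal gave 0 to 0 in these and in the difference between gyri. Precentral against postcentral called 927 genes above an absolute log2FC of 0.5, 1964 with no replicate block and 3341 to 4132 without 1 animal. The frontal comparison called 72 with no replicate block and 149 to 1011 without 1 animal. The parietal one called 50 with DESeq2, 6 without the filter, 0 with no replicate block and 0 to 1 without 1 animal. The causes were not tested.

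Of 1632 pairs of a named gene and an alternative, 6 passed the threshold that the reported value did not: CYP26B1 and VWF with DESeq2 and without the filter, KRT16 without the filter, and VWF with libraries apart. None of the 30 list medians moved by more than 0.0034 with DESeq2's size factors. Signs turned for 36 pairs, for genes reported between -0.04 and 0.50. With the integrity score they were RORB (-0.11), PVALB (0.092), POU3F2 (-0.012), KCNH5 (-0.021), NOS1 (-0.011), TNR (-0.024), KCNH1 (-0.043), CACNA1E (-0.036), GPR17 (-0.031), SLC1A2 (-0.046), DNAH9 (-0.089) and TCF7L2 (-0.063). Without Rhesus 3, 4 and 6 they were RORB (-0.18), PVALB (0.16), ESRRG (-0.0028), POU3F2 (-0.043), KCNH5 (-0.052), SV2C (-0.032), NOS1 (-0.044), GPR17 (-0.042), SLC1A2 (-0.0090), ALDH1L1 (0.0058), DNAH9 (-0.066) and TCF7L2 (-0.0037). PVALB had 0.11 with libraries apart and LUM -0.013 with no replicate block. Without 1 animal PVALB ran from -0.054 to 0.045, GFAP from -0.11 to 0.038, DNAH9 from -0.043 to 0.054, LUM from -0.047 to 0.13 and DCN from -0.059 to 0.0067.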
